A study of Mus musculus with 14 samples.

Results

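Non-homologous end joining is represented here by 10 listed mouse genes, out of 34049 genes with any count: Xrcc5, Xrcc6, Prkdc, Dclre1c, Poll, Polm, Xrcc4, Lig4, Nhej1 and Trp53bp1. They were chosen by name, their transcripts' estimated counts were summed per gene, and all 10 passed the filter on low counts that left 24592 genes to test. RNA was sequenced from hair follicle stem cells, which lie in the bulge of the follicle, rest for most of the hair cycle and divide when a new hair begins to grow. They were sorted from back skin as CD34+ Ly-6A/E- cells that also carried a marker the protocol spells CD45f. At postnatal day 20 (P20) there were 4 libraries labelled Irx5KO, a knockout of the transcription factor gene Irx5, and 4 labelled WT (wild type), and at postnatal day 18 (P18) there were 3 of each. The sources used here give no strain, sex or kind of knockout allele, and do not say whether a library holds 1 animal or a pool. Nor do they name the replicates as different mice, so the tests cover only library-to-library spread, part of which may be technical.

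End joining closes a DNA double-strand break without a template. The Ku ring slides onto each broken end and recruits the kinase DNA-PKcs, nucleases and polymerases make the ends fit, and a ligase complex seals them. It works throughout the cell cycle, whereas homologous recombination copies the sister chromatid and is used in S and G2 phase. Bulge stem cells of the mouse have been reported to repair such breaks rapidly by end joining.

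None of the 10 genes differed between the labelled genotypes or between the ages at an adjusted p under 0.05 in edgeR, the count model used throughout, in any comparison. On the earlier P20 date, where 4.83% of all genes tested passed, 6 of 14 homologous recombination genes and 9 of 10 cell division genes rose in Irx5KO as labelled. On the later P20 date, where 0.655% passed, 2 of the 14 and 7 of the 10 fell. The end joining gene with the fewest counts, Nhej1, was lower in all 4 P20 libraries labelled Irx5KO than in all 4 labelled WT, but did not pass either. Most Xrcc4 counts, and its 3 highest libraries, came from 1 transcript annotated as a target of nonsense-mediated decay.

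The libraries held 13618367 to 70083873 estimated counts. Codes read as dates split each age in 2, with both genotypes on each date: at P20 the earlier date holds libraries 3 and 4 of both labelled genotypes and the later date libraries 1 and 2. At P18 the earlier date holds Irx5KO 1, WT 1 and WT 2, and the later date Irx5KO 2, Irx5KO 3 and WT 3, whose deposited name also carries the word het. The Y-linked gene Ddx3y stood at 53.6 to 135 CPM (counts scaled to a common library total) in 9 libraries. In both P20 libraries numbered 1 and all 3 of the earlier P18 date it stood at 0.127 to 0.570 CPM, so date and sex cannot be told apart at P18. All 9 stem cell markers had counts in every library, and Ly6a, the gene sorted against, had 0 to 2.71 CPM. Summed markers of other cells reached their highest values in P20 Irx5KO for suprabasal and cornified epidermis (4 genes), with 702 to 3958 CPM, against 238 to 1278 CPM in P20 WT. The same held for sebaceous gland (2 genes; 42.9 to 323 CPM in P20 Irx5KO, against 65.1 to 183 CPM in P20 WT), fibroblasts (3 genes; 45.2 to 296, against 104 to 224 CPM), Langerhans and myeloid cells (3 genes; 11.8 to 120, against 14.9 to 57.6 CPM) and hair shaft and matrix (2 genes; 10.4 to 24.3, against 6.34 to 15.1 CPM). Over all 14 libraries the others ranged over 3.59 to 72.8 CPM for endothelium (3), 6.17 to 47.7 for melanocytes (3), 0.331 to 42.9 for lymphocytes (4) and 0 to 16.0 for muscle (2); the part of these lists in the results was not tested. Olfactory and vomeronasal receptor genes took 2.41%, 1.80% and 5.45% of the counts of P20 WT 2, P18 WT 1 and P18 WT 2, against 0.102% to 0.611% elsewhere.

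Irx5 itself went against the labels on the earlier P20 date. Its level was 180.6 and 170.1 CPM in Irx5KO 3 and 4 as labelled, against 33.2 and 37.5 CPM in WT 3 and 4 (log2 difference 2.31 ± 0.27, edgeR adjusted p = 0.00015). On the later date it was at 30.0 and 18.1 CPM in Irx5KO 1 and 2, against 107.7 and 93.5 CPM in WT 1 and 2 (-2.06 ± 0.27, adjusted p = 0.0018). The P18 values were 48.0, 70.6 and 73.3 CPM in Irx5KO, against 93.8, 109.6 and 132.3 CPM in WT. Genotypes below are therefore those of the labels, and each P20 date is given on its own. Mki67, a protein of dividing cells, was at 1251.5 and 1418.5 CPM in Irx5KO 3 and 4, against 10.5 and 3.75 CPM in WT 3 and 4. On the later P20 date it was at 18.5 and 14.5 CPM in Irx5KO 1 and 2, against 429.1 and 227.7 CPM in WT 1 and 2, and at P18 it was at 14.1 to 36.5 CPM in all 6 libraries. Division genes were thus high in the P20 libraries with high Irx5, which carry opposite genotype labels on the 2 dates.

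A few stretches of sequence bear on what follows, and are shown so that the letters can be read beside the values. The first is the short Nhej1 transcript that sets the TPM value (an abundance per length, so that genes can be compared) of Nhej1 in a single library, from the GENCODE annotation, with the build GRCm38, at chr1:75125136-75125200 on the minus strand. The second is the Nhej1 promoter, 250 bases before to 50 after the RefSeq start (GRCm38.p6, chr1:75125177-75125476, minus strand). Capitals in both mark the 24 bases they share.

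Nhej1-202: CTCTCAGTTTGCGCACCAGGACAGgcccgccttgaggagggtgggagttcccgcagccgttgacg
Nhej1 promoter: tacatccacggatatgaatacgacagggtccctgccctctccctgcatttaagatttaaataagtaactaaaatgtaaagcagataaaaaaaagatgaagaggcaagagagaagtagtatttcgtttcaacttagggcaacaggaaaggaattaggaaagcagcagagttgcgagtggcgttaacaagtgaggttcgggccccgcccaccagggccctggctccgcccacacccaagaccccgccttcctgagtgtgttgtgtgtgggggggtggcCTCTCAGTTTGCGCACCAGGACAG

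The other pair are RefSeq promoters (GRCm38.p6) of an end joining gene, Xrcc6 (chr15:82016119-82016418, plus strand), and of a homologous recombination gene, Bard1 (chr1:71102923-71103222, minus strand). They are shown because both hold letters bound by E2F factors, which drive genes of S phase; Bard1 rose on the earlier P20 date and Xrcc6 did not pass the test there. The letters TTTCCCGC or TTTGGCGC were searched on both strands, a promoter counts once, TTTGGCGC can overlap its own reverse complement, and capitals mark the single match in each.

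Xrcc6 promoter: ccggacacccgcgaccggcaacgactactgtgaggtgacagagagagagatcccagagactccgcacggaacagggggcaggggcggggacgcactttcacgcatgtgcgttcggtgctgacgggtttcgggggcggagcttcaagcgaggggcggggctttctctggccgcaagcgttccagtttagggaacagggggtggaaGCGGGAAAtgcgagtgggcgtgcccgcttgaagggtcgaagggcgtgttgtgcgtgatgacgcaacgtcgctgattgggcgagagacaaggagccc
Bard1 promoter: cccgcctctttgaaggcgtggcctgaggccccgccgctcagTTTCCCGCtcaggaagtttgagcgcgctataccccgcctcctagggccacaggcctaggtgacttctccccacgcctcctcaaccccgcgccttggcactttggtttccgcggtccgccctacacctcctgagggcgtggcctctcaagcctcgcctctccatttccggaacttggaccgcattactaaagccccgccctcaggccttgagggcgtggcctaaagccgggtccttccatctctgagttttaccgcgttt

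Promoters were found for 8 of the 10 end joining genes, and Xrcc6 was the 1 of these 8 that held the E2F letters. They stood in promoters of 3 of 10 homologous recombination genes (Bard1, Brca2 and Rad51c), of 0 of 8 cell division genes and in 1.56% of all 32851 promoters. A listed gene counts once if any promoter of it matched, whereas the share of all promoters counts each promoter, so they are not counted alike. The letters CCAAT, searched on both strands as the motif of NF-Y, a factor known for binding division genes, stood in the promoters of 4 of 8 end joining genes (Dclre1c, Polm, Xrcc5 and Xrcc6). They stood in promoters of 6 of 10 homologous recombination genes, of 8 of 8 cell division genes and in 37.4% of all promoters, counted in the same ways. A match is a description of letters, not of binding.

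Compared in TPM summed over all transcripts of a gene, the level of Trp53bp1 stood apart and the ranges of the others overlapped those of their neighbours. Its median over the 14 libraries was 70.5 TPM, with a range of 48.9 to 93.0. Xrcc6 had a median of 20.5 TPM (9.67 to 31.3), which did not reach that range. Below it came Xrcc5 with 9.05 TPM (6.22 to 11.4), Polm with 8.29 (2.50 to 17.3), Dclre1c with 5.40 (3.66 to 8.74) and Xrcc4 with 5.38 (3.10 to 24.0). Lowest were Poll with 2.73 TPM (0.810 to 5.20), Prkdc with 2.71 (1.67 to 4.27), Nhej1 with 1.33 (0.229 to 36.3) and Lig4 with 1.19 (0.450 to 2.58). Read library by library, Xrcc6 was above Xrcc5 in 14 of 14 and Xrcc4 above Poll in 13 of 14, although their ranges overlapped. The other neighbours below Xrcc5 changed places more often: the gene with the higher median was the higher in 6 (Poll over Prkdc) to 11 libraries (Polm over Dclre1c, Prkdc over Nhej1). Short transcripts weigh more per count in TPM. Trp53bp1-218, of 598 bases and annotated as a target of nonsense-mediated decay, reached 21.3 TPM. The coding Trp53bp1-208, of 3098 bases, reached 18.1 TPM, and the longest coding transcripts, Trp53bp1-201 and Trp53bp1-202, reached 2.44 and 3.32 TPM. Coding transcripts alone were not ranked, so the order holds for the sums only. Bulk RNA cannot tell fewer cells of a type from less RNA per cell.

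**Figure D1:**
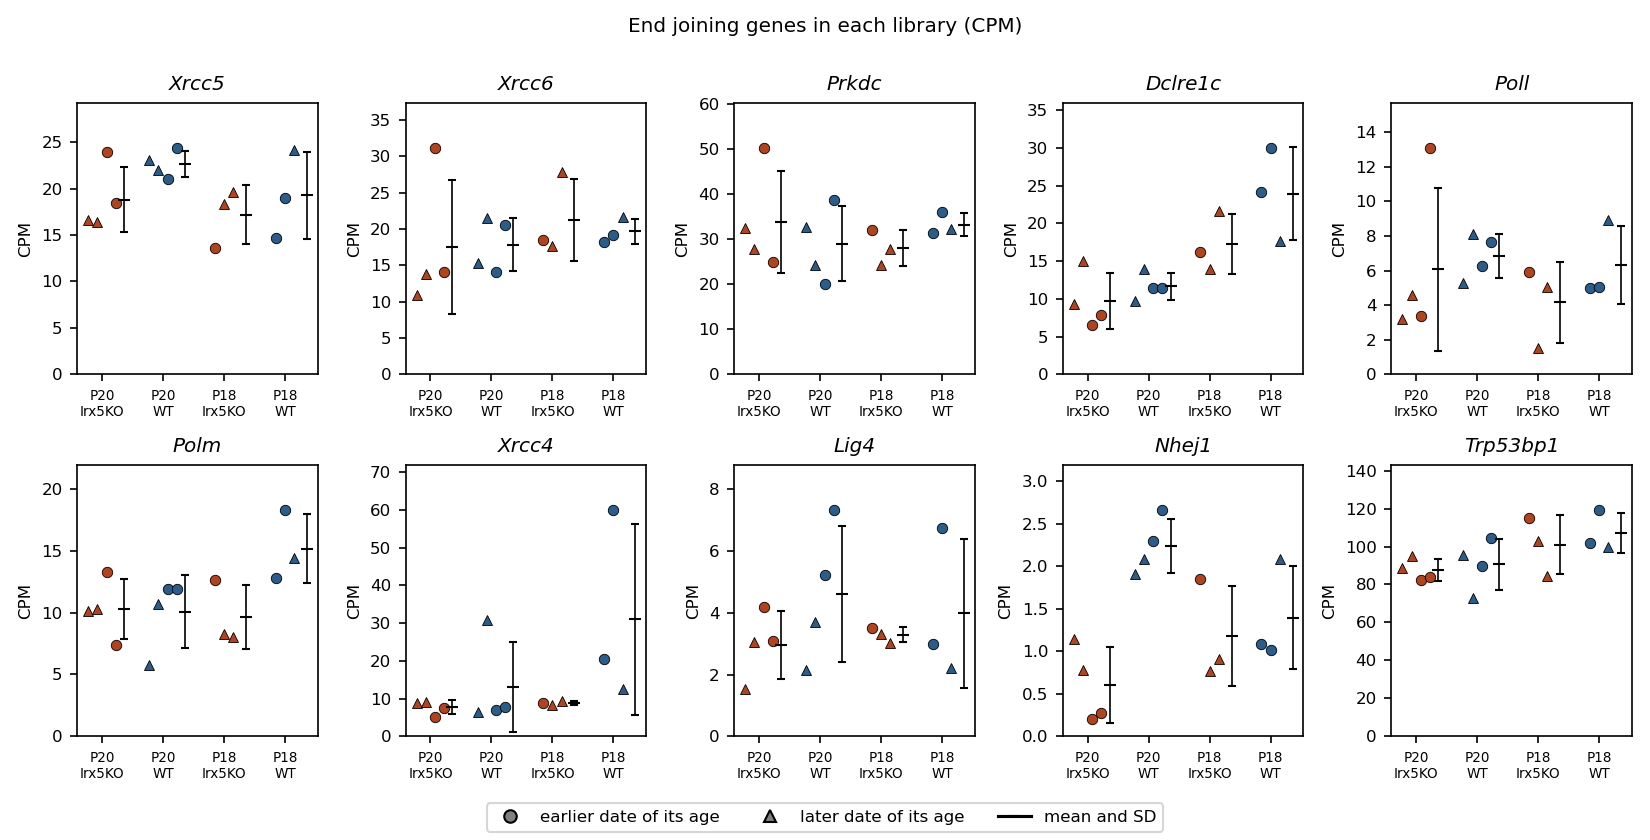
CPM (vertical axis, from 0) of each end joining gene in each library, by age and labelled genotype, with circles for the earlier and triangles for the later date of that age and bars for the mean and SD. Groups overlap in most panels; Nhej1 at P20 does not, with 0.206 to 1.15 CPM in Irx5KO and 1.91 to 2.66 CPM in WT, and Xrcc4 reaches 30.9, 20.6 and 60.0 CPM in 3 WT libraries.

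The end-binding genes came first in the pathway and varied little. Xrcc5 (chromosome 1, 72307421 to 72394952, plus strand, GRCm38) encodes Ku80, the larger subunit of the Ku ring. At P20 it was at 16.6, 16.4, 23.9 and 18.4 CPM in libraries 1 to 4 labelled Irx5KO, against 23.1, 22.1, 21.0 and 24.4 CPM in WT. At P18 it was at 13.7, 18.3 and 19.7 CPM in Irx5KO, against 14.7, 19.0 and 24.1 CPM in WT. Irx5KO 3, 1 of the 2 libraries with the most Mki67, lay within the WT values and the other 3 P20 Irx5KO libraries lay below them. The log2 difference, Irx5KO minus WT, was -0.10 ± 0.33 (SE) on the earlier P20 date and -0.45 ± 0.33 on the later one (edgeR adjusted p = 1 and 0.81).

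Xrcc6 (chromosome 15, 81987835 to 82040085, plus strand) encodes Ku70, the partner of Ku80. It was at 10.9, 13.8, 31.1 and 14.1 CPM in P20 Irx5KO, against 15.3, 21.4, 14.1 and 20.6 CPM in P20 WT. In P18 libraries it was at 18.5, 17.6 and 27.8 CPM in Irx5KO, against 18.3, 19.1 and 21.6 CPM in WT. Irx5KO 3 was the highest of all 14, while Irx5KO 4, whose Mki67 was as high, lay at the low end of the WT values. The log2 difference on the earlier date, 0.39 ± 0.43, turned to -0.29 without Irx5KO 3, and on the later date it was -0.57 ± 0.43 (edgeR adjusted p = 0.76 for the first and 0.82 for the last). The gene overlaps Desi1 on the other strand, and no strand setting is stated, so reads of the overlap cannot be told apart.

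Prkdc (chromosome 16, 15637866 to 15842235, plus strand) encodes DNA-PKcs, the kinase that Ku recruits. Its level was 32.4, 27.8, 50.3 and 25.0 CPM in P20 Irx5KO, against 32.9, 24.4, 20.1 and 38.7 CPM in P20 WT. The P18 values were 32.1, 24.3 and 27.9 CPM in Irx5KO, against 31.3, 36.2 and 32.3 CPM in WT. P20 Irx5KO 3 was again the highest of all 14, and the groups overlapped at both ages. Log2 differences were 0.36 ± 0.38 on the earlier and 0.07 ± 0.38 on the later P20 date (edgeR adjusted p = 0.74 and 0.98), and the first turned to -0.23 without Irx5KO 3 and to -0.04 without WT 3. A pseudogene, Gm49511, lies within the gene on the same strand, and sharing of reads with it is uncertain.

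Genes that process the ends followed. Dclre1c (chromosome 2, 3424131 to 3464130, plus strand) encodes Artemis, the nuclease that trims ends and opens hairpins. It was at 9.32, 15.1, 6.53 and 7.90 CPM in P20 Irx5KO, against 9.77, 13.98, 11.5 and 11.4 CPM in P20 WT. P18 libraries had 16.3, 13.9 and 21.7 CPM in Irx5KO, against 24.2, 30.0 and 17.7 CPM in WT. The lowest values of all were those of the earlier P20 date in Irx5KO, and the 2 highest were P18 WT 1 and 2, both receptor-rich. P20 minus P18 was -0.83 ± 0.35 in Irx5KO and -1.04 ± 0.35 in WT on the log2 scale (edgeR adjusted p = 0.31 and 0.29), so neither passed, and the WT value was -0.75 without the 3 receptor-rich libraries. Each age has its own dates, so age and date cannot be told apart. The gene overlaps Suv39h2 on the other strand.

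Poll (chromosome 19, 45552275 to 45560531, minus strand) encodes polymerase lambda and Polm (chromosome 11, 5827860 to 5838016, minus strand) polymerase mu, which fill gaps at the joined ends. Poll was at 3.19, 4.60, 3.37 and 13.1 CPM in P20 Irx5KO, against 5.29, 8.09, 6.26 and 7.63 CPM in P20 WT. At P18 it was at 5.90, 1.51 and 5.07 CPM in Irx5KO, against 4.99, 5.04 and 8.94 CPM in WT. Irx5KO 4 was above every other library and the other 3 P20 Irx5KO libraries were below all P20 WT libraries. The log2 difference on the earlier date was 0.25 ± 0.81 with Irx5KO 4 and -1.03 without it (edgeR adjusted p = 1 and 0.69), and on the later date -0.78 ± 0.81 (adjusted p = 0.88). Polm was at 10.2, 10.3, 13.3 and 7.34 CPM in P20 Irx5KO, against 5.75, 10.7, 11.9 and 11.9 CPM in P20 WT. In P18 it was at 12.7, 8.30 and 8.03 CPM in Irx5KO, against 12.8, 18.3 and 14.4 CPM in WT. All 3 P18 Irx5KO values of Polm lay below the WT values, the nearest by a small margin, and its log2 difference at P18, -0.56 ± 0.42, did not pass (edgeR adjusted p = 0.92). Of all genes tested, 19.5% had every P18 Irx5KO library below every WT library, and Polm and Xrcc4 were the 2 of 10 end joining genes that did.

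In the sealing complex, Xrcc4 had the largest SD of log2(CPM + 0.5) of the 10 genes, 0.94. Highest over lowest CPM was larger for Nhej1 (12.9) than for Xrcc4 (11.6). Xrcc4 (chromosome 13, 89774027 to 90089608, minus strand) encodes the scaffold that holds ligase IV. It was at 8.86, 9.20, 5.15 and 7.56 CPM in P20 Irx5KO, against 6.44, 30.9, 7.03 and 7.81 CPM in P20 WT. At P18 it was at 8.73, 8.24 and 9.27 CPM in Irx5KO, against 20.6, 60.0 and 12.7 CPM in WT. The 3 highest values are those of the 3 libraries rich in receptor counts. The P18 log2 difference was -1.37 ± 0.66 (edgeR adjusted p = 0.92).

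A transcript annotated as a target of nonsense-mediated decay, Xrcc4-202, held 74.5% of all Xrcc4 counts. It is 3422 bases long, and 2510 of these are not in Xrcc4-201, the main coding transcript. They lie mostly in its last exon (chromosome 13, 89774027 to 89776408, 2382 bases), which shares 0 bases with exons of Tmem167, the gene on the other strand. Xrcc4-202 was at 7.26, 6.60, 0 and 0.0855 CPM in P20 Irx5KO, against 3.91, 29.6, 0.494 and 0.756 CPM in P20 WT. It was at 3.59, 6.52 and 5.63 CPM in P18 Irx5KO, against 19.6, 58.5 and 8.55 CPM in P18 WT. Its 3 high libraries are again the receptor-rich ones, and all 4 libraries of the earlier P20 date were near 0. Xrcc4-201 was at 1.59, 2.58, 5.15 and 7.48 CPM in P20 Irx5KO, against 2.50, 1.32, 6.52 and 7.07 CPM in P20 WT. In P18 libraries Xrcc4-201 was at 5.08, 1.14 and 3.50 CPM in Irx5KO, against 0.991, 1.17 and 4.12 CPM in WT. The coding transcript was thus highest on the earlier P20 date in both labelled genotypes, whether Mki67 was high or low. With coding transcripts alone, the Xrcc4 log2 difference was 0.61 at P18, 0.16 on the later P20 date and -0.05 on the earlier one (edgeR adjusted p = 1, 0.99 and 1). How kallisto divides reads between overlapping transcripts is a model estimate, and the part of the receptor-rich libraries was not tested beyond leaving them out.

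**Figure D2:**
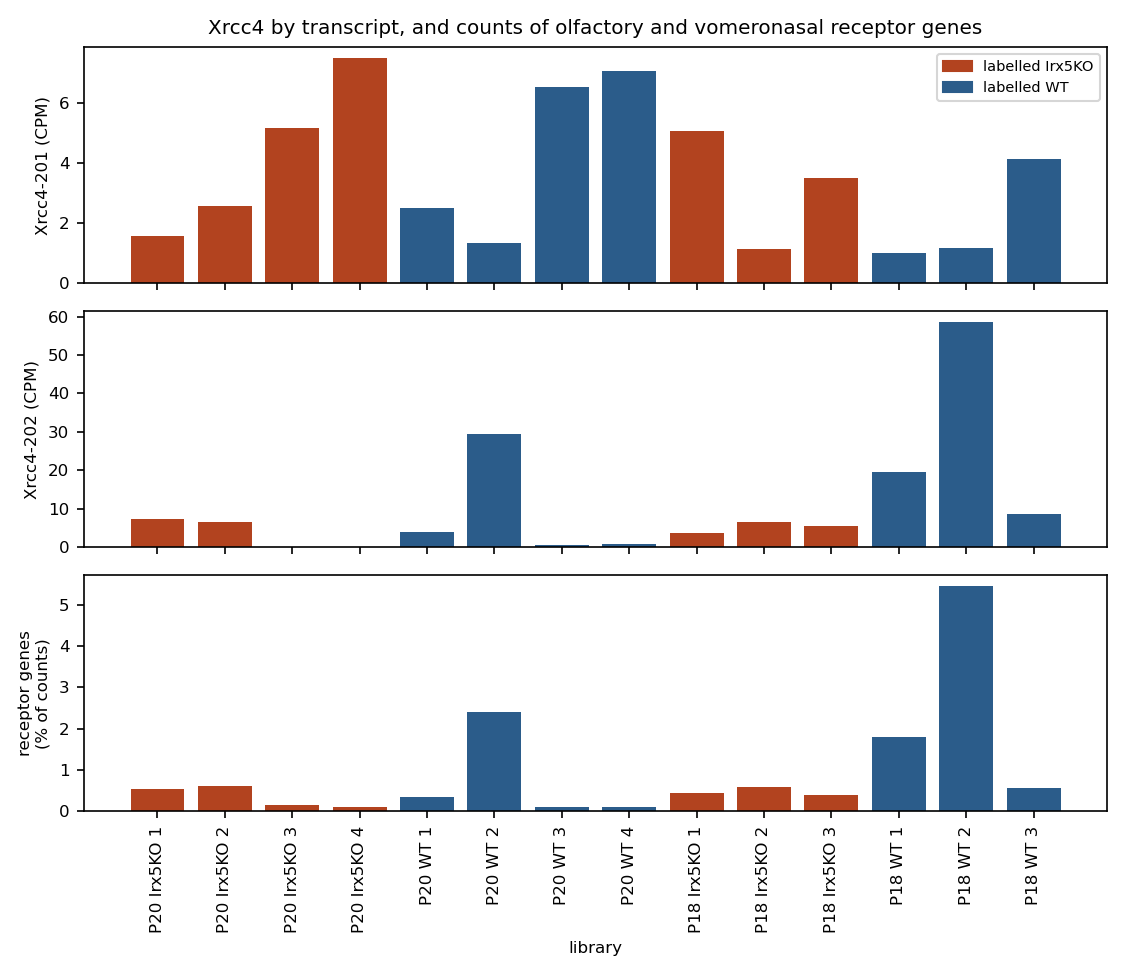
CPM of the coding transcript Xrcc4-201 (top), CPM of the decay transcript Xrcc4-202 (middle) and percent of counts in olfactory and vomeronasal receptor genes (bottom) in the 14 libraries, coloured by labelled genotype; bars start at 0. Xrcc4-202 is at 19.6 to 58.5 CPM in the 3 libraries with 1.80% to 5.45% receptor counts and at 0 to 8.55 CPM in the others.

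Lig4 (chromosome 8, 9969049 to 9977686, minus strand) encodes ligase IV, the enzyme that seals the break. It was at 1.52, 3.05, 4.19 and 3.09 CPM in P20 Irx5KO, against 2.16, 3.71, 5.23 and 7.32 CPM in P20 WT. P18 values were 3.51, 3.32 and 3.02 CPM in Irx5KO, against 2.99, 6.74 and 2.22 CPM in WT. The groups overlapped at both ages. The log2 differences, -0.78 ± 0.91 on the earlier and -0.36 ± 0.91 on the later P20 date, were smaller than their errors (edgeR adjusted p = 0.78 and 0.96).

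Nhej1 (chromosome 1, 74967139 to 75125200, minus strand) encodes XLF, which bridges the broken ends together with XRCC4. It was at 1.15, 0.777, 0.206 and 0.276 CPM in P20 libraries 1 to 4 labelled Irx5KO, against 1.91, 2.09, 2.30 and 2.66 CPM in those labelled WT. All 4 Irx5KO libraries lay below all 4 WT libraries, on the date when Irx5 followed the labels and on the date when it did not. The lowest were Irx5KO 3 and 4, the libraries with the most Mki67, while WT 1 and 2, which had the next most, lay below WT 3 and 4 and above every P20 Irx5KO library. Among the 10 genes it was the only one without overlap at P20, and 0.699% of all genes tested had every P20 Irx5KO library below every WT library. The P18 groups overlapped, with 1.85, 0.773 and 0.907 CPM in Irx5KO, against 1.09, 1.02 and 2.09 CPM in WT.

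The Nhej1 counts are small. Irx5KO 3 and 4 held 3 and 5 counts, against 69 and 44 in WT 3 and 4, and Irx5KO 1 and 2 held 40 and 26, against 75 and 53 in WT 1 and 2. Scaled for depth, the summed counts of WT were 9.91 times those of Irx5KO on the earlier date (95% interval 4.86 to 23.5) and 2.05 times on the later date (1.51 to 2.80); these intervals cover counting error only. The edgeR log2 difference, Irx5KO minus WT, was -3.34 ± 1.56 on the earlier date (95% interval -6.67 to -0.01) and -1.05 ± 1.41 on the later date. Adjusted p-values were 0.29 and 0.92, and 0.83 for the 2 dates together (-2.15 ± 1.06). DESeq2, another count model, called Nhej1 on the earlier date (-3.33, adjusted p = 0.00903). That is 1 tool out of 3, since limma voom gave -3.18 with an adjusted p of 0.0564. The difference between the dates, earlier minus later, was -2.29 ± 2.03 (edgeR adjusted p = 0.71), and the genotype effect at P20 minus that at P18 was -1.90 ± 1.53 (adjusted p = 1).

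In TPM, Nhej1 in P20 WT 1 stood at 36.3 against 0.229 to 3.21 in the other 13 libraries. This rests on 12 counts assigned to Nhej1-202, the 65-base transcript printed above, which had 0 counts in the other 13. It begins 26 bases and ends 90 bases past the RefSeq start at position 75125226, and 78587 bases lie between that start and the start of Nhej1-201 in the annotation, the transcript that held the other counts. On the CPM scale the 12 counts added 0.305 to 1.60 CPM in that library, and the groups do not overlap with or without them.

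Trp53bp1 (chromosome 2, 121193281 to 121271407, minus strand) encodes 53BP1, which binds chromatin beside breaks and holds off the resection that homologous recombination needs. It was at 88.9, 95.1, 82.1 and 84.0 CPM in P20 Irx5KO, against 95.5, 72.8, 89.6 and 104.4 CPM in P20 WT. P18 libraries had 115.3, 103.0 and 84.6 CPM in Irx5KO, against 102.0, 119.2 and 99.7 CPM in WT. As a total of all its transcripts it was the steadiest of the 10. Its interval on the earlier P20 date, -0.73 to 0.29 on the log2 scale around -0.22, was the narrowest. The gene has 19 transcripts, of which the 4 coding ones held 57.3% of its counts, and it overlaps Tubgcp4 on the other strand. Coding transcripts alone summed to 50.7, 49.9, 30.1 and 32.2 CPM in P20 Irx5KO, against 52.1, 47.3, 52.4 and 64.2 CPM in P20 WT. Irx5KO 3 and 4 were thus the lowest on that scale while the gene total was not, and this split between transcripts is kallisto's estimate. Highest over lowest CPM of the 14 libraries was 2.47 for coding transcripts alone, against 1.64 for the gene total.

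The spread over the 14 libraries can be set against other genes. Summed over all its transcripts, Trp53bp1 had an SD of log2(CPM + 0.5) of 0.19. Of 10536 well expressed genes (a mean of at least 8 CPM), 99.1% had a larger SD. The SD was 0.26 for Xrcc5, 0.33 for Prkdc, 0.40 for Xrcc6 and 0.41 for Polm, below the 0.51 of the median well expressed gene. It was 0.54 for Lig4, 0.60 for Dclre1c, 0.67 for Poll, 0.67 for Nhej1 and 0.94 for Xrcc4. The scarce genes Lig4, Poll and Nhej1 are not in the well expressed set, and counting error adds to their spread. The added 0.5 CPM lowers it: highest over lowest for Nhej1 was 12.9 without it and 4.48 with it. The median SD was 0.48 over the 10 end joining genes, 1.21 over 14 homologous recombination genes and 2.16 over 10 cell division genes.

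**Figure D3:**
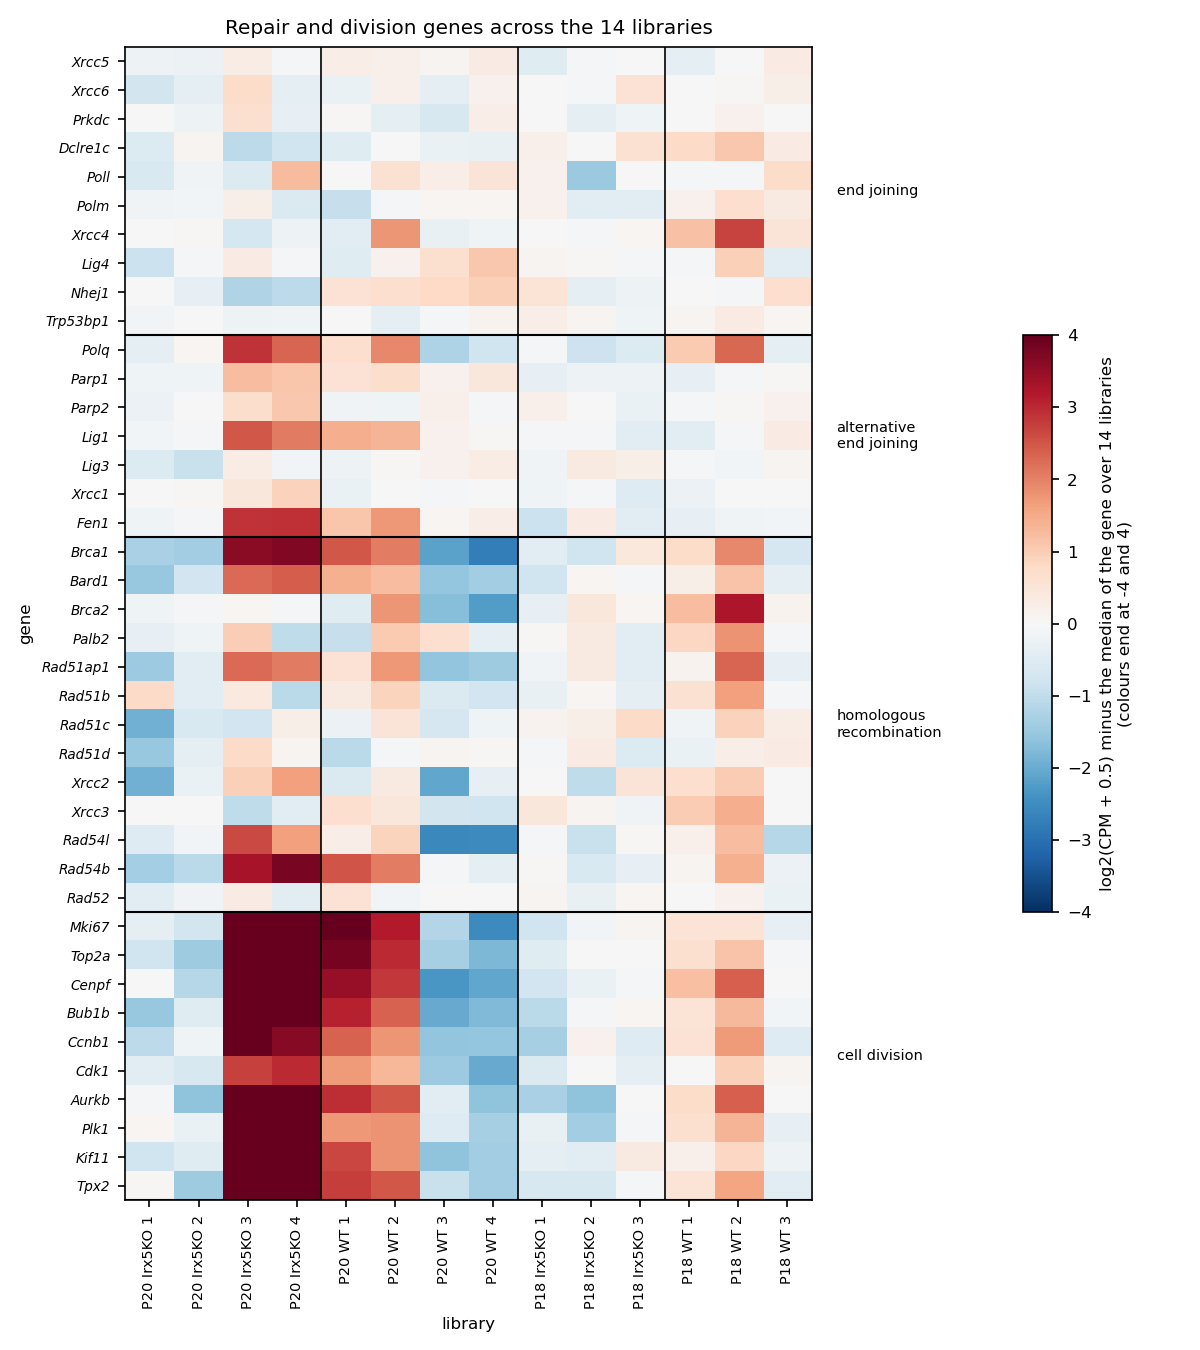
Log2(CPM + 0.5) minus the gene's median over the 14 libraries, in colour from -4 (blue) to 4 (red), for end joining, alternative end joining, homologous recombination (13 of the 14) and cell division genes (rows) in each library (columns, by age and labelled genotype). Cell division genes are red in P20 Irx5KO 3 and 4 and P20 WT 1 and 2, while 10 of the 140 end joining cells lie more than 1 from the median: Xrcc4 in P20 WT 2 and P18 WT 1 and 2, Poll in P20 Irx5KO 4 and P18 Irx5KO 2, Nhej1 in P20 Irx5KO 3 and 4, Dclre1c in P20 Irx5KO 3 and P18 WT 2, and Lig4 in P20 WT 4. In P18 WT 2 the cell division genes also lie above their medians, from Mki67 (36.5 CPM, median 24.7) to Cenpf (42.8, median 7.78) and Aurkb (7.42, median 1.01).

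On the earlier P20 date, 4.83% of genes tested passed (541 higher and 648 lower in Irx5KO) and 0 of the 10 end joining genes did. At an unadjusted p under 0.05 in edgeR there was 1, Nhej1, against 4173 of all 24592 genes tested. DESeq2 called 1 of the 10 and limma voom 0, against 2647 and 1894 genes in all. The median log2 difference of the 10 was -0.22 and their median size 0.30, against 0 and 0.58 over all genes tested. Of the 24592 tested, 10536 were well expressed, as were 7 of the 10. No median size was taken over genes of like expression, so the 2 sizes are not compared alike. In homologous recombination, 6 of 14 genes rose and 0 fell, with a median of 2.24. Brca1, whose product promotes resection of the ends, was at 60.9 and 65.3 CPM in Irx5KO 3 and 4, against 0.633 and 0.242 CPM in WT 3 and 4, and rose by 7.09 ± 0.71 on the log2 scale (edgeR adjusted p = 3.4e-05). Its partner Bard1 rose by 4.22 ± 0.65 (adjusted p = 0.0013), and the recombination motor genes Rad54l and Rad54b by 5.45 ± 0.68 and 4.20 ± 0.81 (adjusted p = 0.00023 and 0.0063). Of 10 cell division genes, 9 rose, with a median of 6.66, among them Mki67 by 7.53 ± 0.52 and the topoisomerase gene Top2a by 6.89 ± 0.41 (adjusted p = 7.7e-06 and 9.2e-07).

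On the later P20 date, 0.655% of genes tested passed (34 higher and 127 lower in Irx5KO), and again 0 of 10 end joining genes, with 0 also at an unadjusted p under 0.05, in DESeq2 and in limma voom. Over all genes tested, 1702 had such an unadjusted p in edgeR, DESeq2 called 463 and limma voom 32. The median log2 difference of the 10 was -0.41 and their median size 0.41, against -0.34 and 0.67 over all genes. Over the well expressed genes alone, which include 7 of the 10, the median log2 difference was -0.05. No median size was taken over them, so the sizes above do not compare genes of like expression. Homologous recombination ran the other way than on the earlier date: 2 of 14 genes fell, with Brca1, which fell by 4.01 ± 0.60, and Rad54b, which fell by 4.53 ± 0.83 (edgeR adjusted p = 0.0041 and 0.017), and 0 rose. Brca1 was at 1.55 and 1.40 CPM in Irx5KO 1 and 2, against 27.4 and 20.4 CPM in WT 1 and 2. Of the cell division genes 7 of 10 fell, with a median of -3.52, and Top2a fell by 4.63 ± 0.37 (adjusted p = 3.8e-05).

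The difference between the dates was tested itself, as the earlier-date effect minus the later-date effect. It passed for 5.17% of genes tested and for 0 of 10 end joining genes, with 0 at an unadjusted p under 0.05, in DESeq2 and in limma voom. Over all genes tested, 3945 had such an unadjusted p in edgeR, DESeq2 called 2405 and limma voom 979. Among the 10 the difference between the dates ranged from -2.29 for Nhej1 to 1.03 for Poll, and its median size was 0.62, against 1.31 over all genes. All genes include the scarce ones, and here too no median size was taken over genes of like expression. The difference between the dates passed for 6 of 14 homologous recombination genes, with a median over the 14 of 3.29. Among cell division genes it passed for 9 of 10, with a median of 10.4. For Brca1 it was 11.1 ± 0.93 and for Bard1 6.91 ± 0.88 (edgeR adjusted p = 3.6e-06 and 0.00018). Intervals show what the libraries could have missed: for Xrcc5 the difference between dates lay in -0.65 to 1.35, for Trp53bp1 in -1.07 to 0.37 and for Prkdc in -0.85 to 1.42. For Lig4 it lay in -3.16 to 2.31 and for Nhej1 in -6.62 to 2.04, so differences of several fold lay inside these intervals.

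**Figure D4:**
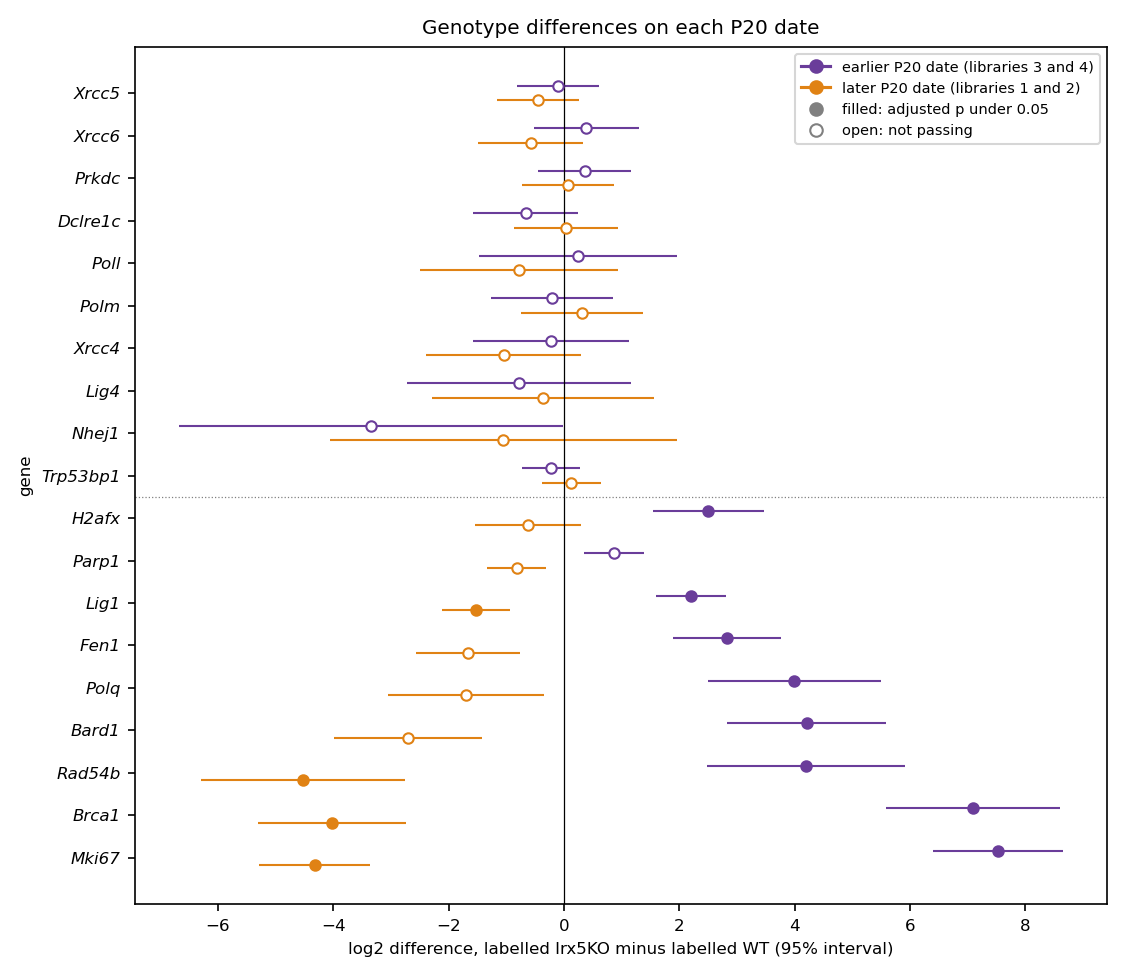
Log2 difference, labelled Irx5KO minus labelled WT, with its 95% interval (horizontal axis), on the earlier (purple) and later (orange) P20 date. Shown are the 10 end joining genes (above the dotted line) and 9 other repair and division genes. The 9 all passed on a P20 date or in the difference between dates, and genes of their lists that did not pass are not shown. Filled points passed at an adjusted p under 0.05 in edgeR. On the earlier date Nhej1 lies at -3.34, with an interval that almost reaches 0, and the other end joining genes at -0.78 (Lig4) to 0.39 (Xrcc6); on the later date the 10 lie at -1.05 (Nhej1) to 0.32 (Polm), while Brca1 stands at 7.09 on the earlier and -4.01 on the later date.

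Other genes of end joining and its rivals were compared by list. Of 8 accessory genes, among them Paxx, which stabilises Ku at ends, and Aptx, which cleans damaged termini, 0 passed on either date or in the difference. Of 12 genes of break signalling and pathway choice, 1 rose on the earlier date, H2afx, whose histone is phosphorylated around breaks. It was at 99.6 and 144.2 CPM in Irx5KO 3 and 4, against 29.2 and 13.6 CPM in WT 3 and 4 (log2 difference 2.51 ± 0.45, edgeR adjusted p = 0.0049). The kinase gene Atm and Rif1, a partner of 53BP1, ranged over 33.8 to 63.3 CPM and 70.8 to 132.8 CPM in the 14 libraries.

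Alternative end joining anneals short homologies at the ends. On the earlier date 3 of its 7 genes rose: the replicative ligase gene Lig1 by 2.21 ± 0.28, the flap nuclease gene Fen1 by 2.82 ± 0.44 and Polq, the polymerase of this route, by 4.00 ± 0.70 (edgeR adjusted p = 0.0003, 0.0014 and 0.0034). Lig1 and Fen1 also join and trim Okazaki fragments in replication. On the later date 1 of 7 fell, Lig1 by 1.52 ± 0.28 (adjusted p = 0.017). Polq was at 32.3 and 21.3 CPM in Irx5KO 3 and 4, against 1.37 and 2.00 CPM in WT 3 and 4. It was also at 16.1 CPM in P20 WT 2 and at 8.50 and 21.1 CPM in P18 WT 1 and 2, the receptor-rich libraries. Of 7 end resection genes 1 rose on the earlier date, Dna2 by 3.67 ± 0.90 (adjusted p = 0.029), and 0 passed on the later date. The difference between dates passed for 4 of 7 alternative end joining genes, 2 of 7 resection genes and 1 of 12 signalling genes.

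Pooled over dates, 0% of genes tested passed in edgeR at P18, at P20 or for the genotype effect at P20 minus that at P18, where 977, 1082 and 335 genes had an unadjusted p under 0.05. DESeq2 called 23, 104 and 29 genes and limma voom 1, 55 and 0. Of the 10 end joining genes, 0 had an unadjusted p under 0.05 in edgeR in any of these 3 and 0 were called by DESeq2 or limma voom. Between ages, 1.57% of genes passed in Irx5KO and 0.195% in WT, and 0 of 10 end joining genes in each. Dclre1c had an unadjusted p under 0.05 in both genotypes and Xrcc4 in WT (log2 difference, P20 minus P18, -1.25 ± 0.57, adjusted p = 0.49). Over all genes tested, 3323 had such an unadjusted p in Irx5KO and 2381 in WT. DESeq2 called 0 of the 10 in either, and limma voom 0 in Irx5KO and 3 in WT (Xrcc5, Dclre1c and Xrcc4), where it called 14321 genes in all.

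For 9 end joining genes the well expressed coding gene with the most similar profile was found by Pearson's r of log2 CPM over the 14 libraries, as a description. Xrcc4 was closest to Katnal1 (r = 0.99), Dclre1c to 9030025P20Rik (0.95), Polm to Gga3 (0.93), Lig4 to Mtif3 (0.91), Xrcc5 to Eci1 (0.91), Poll to Rmdn3 (0.90), Nhej1 to Slc50a1 (0.89), Trp53bp1 to Phka2 (0.84) and Xrcc6 to Gpr180 (0.84). These were each the highest of 10154 or 10155 correlations, and all genes share the libraries and their depth.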

How the data were processed

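Per the labels' protocols, total RNA with a RIN above 8 was read single-end on a HiSeq 2500 and quantified by kallisto 0.46.2. Both mm10 and DESeq2 appear in the submitters' processing notes. The authors deposited estimated counts and TPM values per transcript for each of 14 libraries, per the file headers; strand setting and annotation are not given in the sources used here. Of 118489 transcripts, 116816 matched GENCODE M21 and 1673 (1.19% to 2.59% of counts) were left out. Estimated counts were summed per gene and rounded, and TPM summed.

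Counts were tested with edgeR 4.0.16 in R 4.3.3 (robust quasi-likelihood, default filter by group, all 14 libraries). TMM factors (0.903 to 1.09) came from 10536 genes with a mean of at least 8 CPM, and TMM over all genes kept was an alternative. With these factors the median log2 difference of all genes tested was -0.55 at P18 and -0.25 at P20, against 0.00 and -0.01 for the well expressed genes. CPM values use the TMM library sizes. Genotype effects had the date group as covariate, effects within a date had 1 coefficient per date and genotype, and age effects had no date term. Benjamini-Hochberg adjustment ran over 24592 genes, with a call at 0.05. The SE is the log2 difference over the square root of F, and count ratios have exact 95% intervals. The procedure was checked on simulated counts, with the same spread for all genes and changes only in genes of at least 8 CPM. That check does not cover scarce genes such as Nhej1, Lig4 and Poll, nor the spread of these libraries. Tables used Python 3.11.15 with scipy 1.17.1, and the alternatives DESeq2 1.42.0 and limma 3.58.1.

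The members and lists were chosen with earlier results of these data known. Named genes are the 10 members, Irx5, Mki67, Top2a, Brca1, up to 4 genes per list with the smallest p in a comparison, and the nearest gene of a member, where some items are not reported here; Ddx3y, Paxx, Aptx, Atm and Rif1 were named after their values were seen. Shld3 matched no gene. No replicate pair agreed within sampling noise (lowest chi-square over degrees of freedom 61.2). Deviations of same-numbered libraries correlated at 0.37, 0.17 and 0.28 at P18, and at 0.01, 0.37, 0.12 and 0.29 at P20. Not all same-numbered P18 libraries share a date, and values for differently numbered libraries are not given here. These correlations therefore do not show that the numbers in the titles mark pairs.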

Additional observations from a re-analysis of the deposited data

Results flagged for a closer look

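Within groups of 4 libraries, 3 of 20 gene-by-group sets held 1 library far from the other 3, where chance gives about 1 in 20. Xrcc6 was highest in P20 Irx5KO 3, at 31.13 CPM, against 10.9 to 14.1 CPM in the other 3. Poll was highest in P20 Irx5KO 4, at 13.08 CPM, against 3.19 to 4.60 CPM. Xrcc4 was highest in P20 WT 2, at 30.87 CPM, against 6.44 to 7.81 CPM. P20 Irx5KO 3 has the fewest counts of all libraries, 13618367, and P20 WT 2 is 1 of the 3 receptor-rich libraries; the part of either in these values was not tested.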

How the results depend on the processing

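Over 25 settings, 916 of 957 alternatives of 40 end joining results kept their direction and their side of the threshold, 38 changed sign without passing and 3 came to pass, Nhej1 with DESeq2 and Dclre1c and Xrcc4 with limma voom. The 40 do not cover every end joining gene in every comparison. The number of end joining genes called stayed at 0 except for 1 with DESeq2 on the earlier P20 date (Nhej1) and 3 with limma voom between ages in WT (Dclre1c, Xrcc4 and also Xrcc5, whose age difference in WT is not among the 40).

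Genes called at P18, at P20 and for the age difference of the genotype effect, and on the later date, on the earlier date and for the difference between dates, numbered 183, 209, 19, 668, 2100 and 2041 without a filter, and 23, 104, 29, 463, 2647 and 2405 with DESeq2, which called 1390 between ages in Irx5KO and 682 in WT. Limma voom called 1 at P18, 55 at P20, 32 on the later and 1894 on the earlier date, and 1282 between ages in Irx5KO and 14321 in WT. TMM over all genes kept called 143 between ages in Irx5KO and 0 in WT, coding transcripts alone 18 in WT, and without the receptor-rich libraries there were 2 in WT and 1878 on the earlier date. Leaving out 1 library gave 0 to 1 at P18, 0 to 1 for the age difference, 28 to 255 on the later date, 415 to 1574 on the earlier date, 669 to 1447 for the difference between dates, 61 to 418 between ages in Irx5KO and 11 to 115 in WT. The lowest came without Irx5KO 2 (later date), without WT 3 (earlier date and date difference), without P18 Irx5KO 3 and without P18 WT 1. The causes were not tested. The replicate block gave 0 calls at P18 and P20, 120 on the later date, 987 on the earlier date and 1160 for the difference, changed no end joining call, and turned Poll on the earlier date to -0.050.

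Coding transcripts alone turned the log2 difference of Xrcc4 to 0.61 at P18, 0.052 at P20, 0.16 on the later date, -0.21 for the difference between dates and 0.78 between ages in WT. Without the receptor-rich libraries Xrcc4 was 0.073 at P20, 0.53 on the later date and -0.74 for the difference between dates, and on the later date Prkdc was -0.089, Lig4 0.12 and Trp53bp1 -0.016. Dclre1c was -0.035 on the later date in a fit of P20 alone. Leaving out 1 library gave, on the later date, -0.12 to 0.31 for Prkdc, -0.34 to 0.35 for Dclre1c, -0.054 to 0.83 for Polm, -1.77 to 0.49 for Xrcc4, -0.94 to 0.085 for Lig4 and -0.049 to 0.34 for Trp53bp1. On the earlier date it gave -0.30 to 0.082 for Xrcc5, -0.29 to 0.85 for Xrcc6, -0.23 to 0.90 for Prkdc, -1.03 to 0.92 for Poll, -0.69 to 0.16 for Polm and -0.52 to 0.034 for Xrcc4. For the difference between dates it gave -0.30 to 0.83 for Prkdc, -0.26 to 1.70 for Poll, -0.71 to 1.55 for Xrcc4 and -0.87 to 0.15 for Lig4, and it gave -1.44 to 0.24 for Poll at P18 and -0.88 to 0.061 for Xrcc4 at P20. The Nhej1 difference on the earlier date stayed between -3.56 and -3.15 with each library left out, with edgeR adjusted p of 0.21 to 0.60. Nhej1 had the fewest counts, 3 to 98 a library, followed by Lig4 with 53 to 200 and Poll with 49 to 419; the part of depth in their intervals was not tested.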
